A study of Mus musculus with 28 samples.

Results

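The genes described here are 43 genes of DNA replication and S phase: those that license replication origins, unwind and copy DNA, supply deoxynucleotides and pack the new DNA into chromatin. They are a list of gene names, drawn up with earlier results of these data known, and all 43 were found among the 54354 genes of the count table. All 43 also passed the filter on low counts, which left 12495 genes for testing. All 4 groups were of mice with the genotype Lgr5-GFP, a fluorescent reporter of Lgr5, the receptor gene that marks intestinal stem cells. The groups were Lgr5-high cells on control diet, Lgr5-high cells on cystine diet, Lgr5-low cells on control diet and Lgr5-low cells on cystine diet, with 7 small intestinal libraries in each. Cystine consists of a pair of cysteine molecules joined by a disulfide bond. No age, dose or length of feeding was given in the sources used here. The extraction protocol in the labels named organoids, whereas the design text named cells isolated from the small intestine, so the RNA source was not settled. Whether each library is another animal was not stated, and p-values then measure only the spread between these libraries, which may be technical.

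In every cell cycle, the origin recognition complex, Cdc6 and Cdt1 load the MCM2-7 helicase onto DNA in G1, and geminin later blocks a repeat of this loading. In S phase the helicase is activated by Cdc45 and the GINS complex, polymerases copy the strands on a sliding clamp, and ribonucleotide reductase with thymidylate synthase supplies the deoxynucleotides. Many of these genes are transcribed at the G1/S boundary under E2F factors. In the intestinal crypt both Lgr5-expressing stem cells and their transit-amplifying daughters divide. In bulk RNA, fewer cells of a type and less RNA per cell cannot be told apart, so a level here is an average over cells in and out of S phase.

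Promoter sequences show the letters these genes share. RefSeq promoters on GRCm38.p6, running from 250 bases before to 50 after a transcription start, were matched by symbol for 35 of the 43 genes, giving 40 promoters. The letters TTTCCCGC, TTTCGCGC, TTTGCCGC or TTTGGCGC, which are versions of the E2F recognition motif, were searched on both strands and occurred in 13 of the 40 promoters (32.5%), against 744 of 32851 promoters in all (2.26%). CCAAT, the box bound by NF-Y, occurred on either strand in 22 of 40 (55%), against 37.4% of all promoters. The letters TTTGAA of the cell cycle homology region, a motif of G2 and M phase promoters, occurred in 4 of 40 (10%), against 17.9% of all. The 4 promoters below belong to the genes with the lowest p-value in one or more of the comparisons that follow, and capitals mark the E2F and CCAAT letters on either strand. A match describes the letters in the window and is not evidence of a bound site.
Mcm6, chr1:128359656-128359955, minus strand: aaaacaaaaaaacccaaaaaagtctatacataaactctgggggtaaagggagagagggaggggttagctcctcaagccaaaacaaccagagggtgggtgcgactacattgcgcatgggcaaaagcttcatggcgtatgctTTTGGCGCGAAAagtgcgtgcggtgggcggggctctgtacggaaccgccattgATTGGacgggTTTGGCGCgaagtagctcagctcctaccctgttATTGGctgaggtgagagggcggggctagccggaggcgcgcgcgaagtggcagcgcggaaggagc
Rrm2, chr12:24708004-24708303, plus strand: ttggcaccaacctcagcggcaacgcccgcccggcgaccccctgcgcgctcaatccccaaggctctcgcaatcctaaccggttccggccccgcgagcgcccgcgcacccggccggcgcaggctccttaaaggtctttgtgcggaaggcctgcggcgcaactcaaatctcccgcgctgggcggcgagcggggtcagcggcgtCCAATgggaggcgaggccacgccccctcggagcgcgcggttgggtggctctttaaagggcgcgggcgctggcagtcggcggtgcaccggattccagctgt
Rfc4, chr16:23127681-23127980, minus strand: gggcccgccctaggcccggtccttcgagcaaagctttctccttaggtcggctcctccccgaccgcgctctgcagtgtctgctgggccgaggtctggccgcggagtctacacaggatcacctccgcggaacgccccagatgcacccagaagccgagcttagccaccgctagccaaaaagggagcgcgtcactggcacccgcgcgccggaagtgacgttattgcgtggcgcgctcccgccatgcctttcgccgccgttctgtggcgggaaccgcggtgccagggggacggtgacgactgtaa
Uhrf1, chr17:56304063-56304362, plus strand: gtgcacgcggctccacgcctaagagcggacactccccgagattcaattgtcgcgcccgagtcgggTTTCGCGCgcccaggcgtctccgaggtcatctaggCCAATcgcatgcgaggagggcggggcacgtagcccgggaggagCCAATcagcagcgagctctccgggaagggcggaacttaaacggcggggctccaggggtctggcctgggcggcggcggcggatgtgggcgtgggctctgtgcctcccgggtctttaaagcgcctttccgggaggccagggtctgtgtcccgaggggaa
The Mcm6 promoter held 3 matches to the E2F letters, of which the first pair overlapped. The Rrm2 window held 1 CCAAT and no E2F match, and the Rfc4 window held neither. Uhrf1 had a second promoter with no E2F match.

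Library totals ran from 2.75 to 21.5 M counts (M, 1000000), and 7 of the 28 libraries held fewer than 5 M, 3 of them in the Lgr5-high cystine group. The reporter split was visible in Lgr5 itself, whose median was 33.2 CPM (counts per 1000000, with library sizes scaled by TMM) in Lgr5-high and 4.09 CPM in Lgr5-low cells on control diet. Of 10 stem cell markers, 6 were called higher in Lgr5-high cells on control diet and 5 on cystine diet. Goblet markers were called lower for 6 of 8 on both diets. Summed over 12 macrophage markers, the Lgr5-high cystine libraries held 23.8 to 683 CPM, against 29.0 to 60.8 CPM in the Lgr5-high controls. Xist, the transcript of the inactive X chromosome, split the libraries into 18 from females and 10 from males, with 2 or 3 male libraries in each group.

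The replication genes differed widely in level. Per kilobase of annotated exon, averaged over all libraries, Rfc4 was the highest at 215 CPM per kb, followed by Gmnn at 110.3, Pcna at 103 and Tyms at 48.2 CPM per kb. Rfc4 is a subunit of the clamp loader, Gmnn encodes geminin, Pcna is the sliding clamp, and Tyms encodes thymidylate synthase. Rrm2, the regulated subunit of ribonucleotide reductase, was the next at 27.8 CPM per kb. The lowest were Orc1 at 0.541, E2f1 at 1.06 and Pole at 1.06 CPM per kb, and 8 of the 1204 values over genes and libraries were 0. All 43 genes together summed to a median of 2757 CPM in Lgr5-high control libraries (range 2252 to 3002), 2541 in Lgr5-high cystine (2071 to 3077), 2300.4 in Lgr5-low control (1811 to 3230) and 2161 in Lgr5-low cystine libraries (1644 to 2957). These ranges overlapped between all groups.

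The first comparison asked how the Lgr5-high population differed from the Lgr5-low population. On control diet, 0 of 43 genes passed an adjusted p of 0.05 in edgeR's quasi-likelihood test, where 1.80% of all 12495 genes did. At an unadjusted p under 0.05 there were 9 of 43, with 8 higher in Lgr5-high cells (5.92% of all genes) and 1 lower (6.94%). DESeq2 called 0 of the 43 higher (1.42% of all) and 1 lower (1.86%), and limma-voom called 2 higher (3.38%) and 1 lower (3.03%). The estimate was positive, that is higher in Lgr5-high cells, for 32 of 43 genes (74.4%) with a median log2 fold change of 0.24, against 49.4% and a median of -0.0097 over all genes tested. On cystine diet 0 of 43 passed in edgeR (2.64% of all genes), and 9 were under an unadjusted p of 0.05, 7 higher (6.80%) and 2 lower (8.72%). DESeq2 called 1 higher (2.41% of all) and 0 lower (2.19%), and limma-voom called 2 higher (3.63%) and 1 lower (3.65%). There 24 of 43 estimates were positive, with a median of 0.018 against -0.040 over all genes. In neither diet did any of the 43 genes have all 7 Lgr5-high libraries above, or all 7 below, the Lgr5-low libraries. Of all genes, 0.472% lay wholly above and 0.488% wholly below on control diet, and 0.56% and 0.736% on cystine diet.

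**Figure D1:**
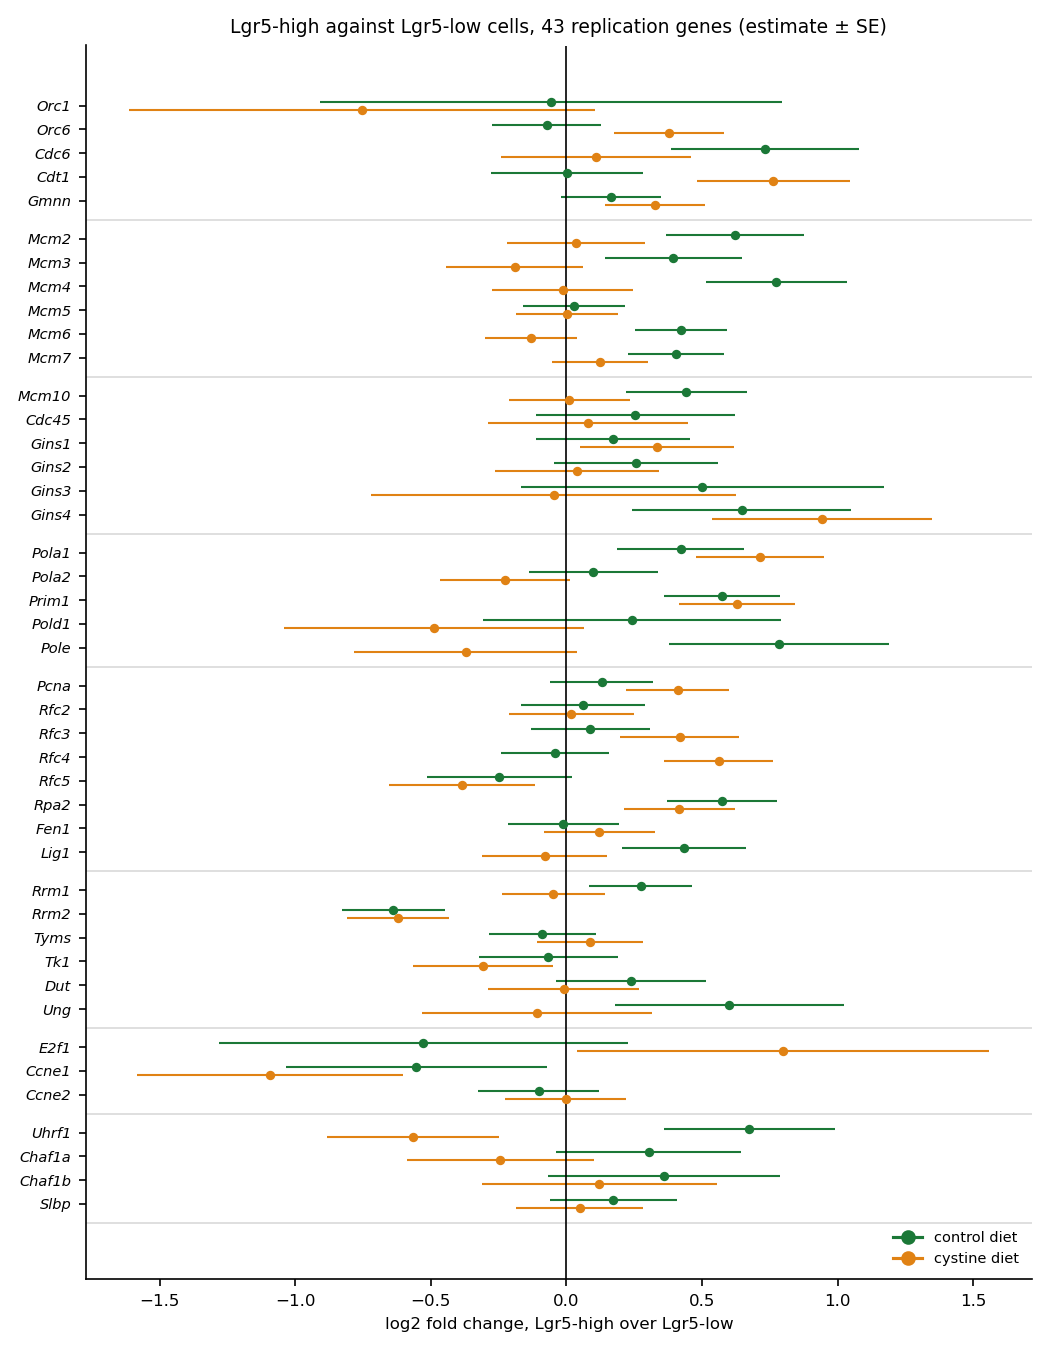
Log2 fold change of Lgr5-high over Lgr5-low cells for the 43 genes, grouped by role from origin licensing to chromatin, on control diet (green) and cystine diet (orange). Points are edgeR estimates for 7 against 7 libraries, and bars are standard errors from the fit of all 28 libraries. Rrm2 lies at -0.64 and -0.62, while the 6 MCM2-7 genes are all positive on control diet and split 3 to 3 on cystine diet.

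Rrm2 had the lowest p-value of the 43 in both diets, and its estimate was opposite in sign to most of the other genes. On control diet Rrm2 in Lgr5-high libraries had a lowest value of 31.9, a median of 67.0 and a highest of 90.9 CPM, against 70.9, 95.9 and 119.9 CPM in Lgr5-low libraries. Of the 7 Lgr5-high libraries, 6 lay below every Lgr5-low library. The log2 fold change was -0.64 ± 0.19 (SE) with an adjusted p of 0.0696 (edgeR). On cystine diet the values were 43.3, 60.5 and 82.96 CPM in Lgr5-high against 58.5, 95.4 and 124 CPM in Lgr5-low libraries, so the groups overlapped, with all 7 Lgr5-high libraries under the Lgr5-low median. The log2 fold change there was -0.62 ± 0.19, adjusted p = 0.0648 (edgeR). The call rested on the method on control diet: the adjusted p was 0.0355 in DESeq2, 0.0245 in limma-voom and 0.0311 in edgeR with a term for sex, and over all alternatives it ran from 0.0245 to 0.334. Within sexes the control diet estimate was -0.43 among females (adjusted p = 0.179, edgeR) and -0.91 among males (adjusted p = 0.334, edgeR). On cystine diet the adjusted p was 0.0216 in limma-voom and 0.0353 with the sex term, with a range of 0.0203 to 0.678. Without Lgr5-high control replicate 1, the group's highest Rrm2 library, the adjusted p on control diet was 0.0257, and on cystine diet it was 0.0372 without Lgr5-high replicate 7 and 0.0407 without Lgr5-low replicate 2. No other fit with a library left out passed for Rrm2. Over the 14 such fits of each diet the adjusted p reached 0.149 on both diets (edgeR).

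For the partner of Rrm2 and the other nucleotide genes the estimates were smaller in size on both diets. Rrm1, the large subunit of ribonucleotide reductase, had medians of 118 CPM in Lgr5-high and 95.2 CPM in Lgr5-low control libraries, with ranges of 100.2 to 173 and 82.9 to 155 CPM. Tyms, which makes thymidylate, had a lowest of 247, a median of 308 and a highest of 371 CPM in Lgr5-high controls against 194, 258 and 482 CPM in Lgr5-low controls. The Tyms ranges thus overlapped, with the Lgr5-low libraries spread over a much wider range. On cystine diet Tyms ran 201, 284 and 414 CPM in Lgr5-high and 201, 236 and 439 CPM in Lgr5-low libraries. Of the 6 genes of nucleotide supply and uracil removal, which also include the thymidine kinase gene Tk1, the dUTPase gene Dut and the uracil glycosylase gene Ung, 3 estimates were positive on control diet and 1 on cystine diet. Rrm2 was the only one of these 6 under an unadjusted p of 0.05 in either.

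**Figure D2:**
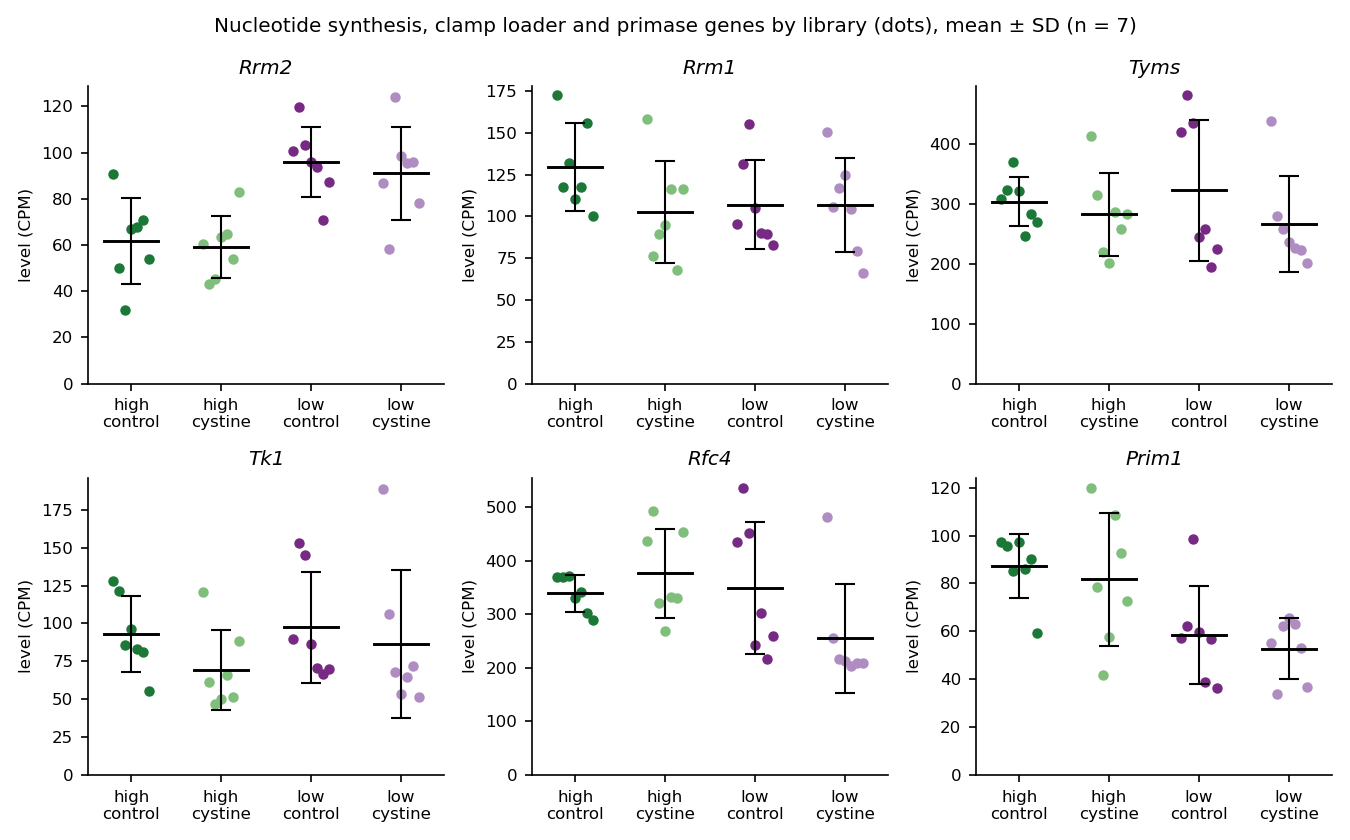
Level in CPM in each library (dots) of 4 nucleotide genes, the clamp loader gene Rfc4 and the primase gene Prim1 in the 4 groups, with the mean (long line) and SD (bar), n = 7. Rrm2 medians were 67.0 and 60.5 CPM in Lgr5-high against 95.9 and 95.4 CPM in Lgr5-low libraries, and the Rfc4 values of Lgr5-low controls lie in separate ranges of 217 to 302 and 435 to 536 CPM.

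The 6 genes of the MCM2-7 helicase, which unwinds DNA at the fork, were all positive in Lgr5-high cells on control diet, with a median log2 fold change of 0.41, and 4 had an unadjusted p under 0.05. Mcm4 was the largest of them: Lgr5-high libraries had 26.2, 32.2 and 41.3 CPM (lowest, median, highest) against 8.77, 18.9 and 38.1 CPM in Lgr5-low libraries. Its log2 fold change was 0.77 ± 0.26 with an adjusted p of 0.129 (edgeR), and all 7 Lgr5-high libraries were above the Lgr5-low median. Without Lgr5-low control replicate 5, the one Lgr5-low library among the Lgr5-high values, the adjusted p was 0.0333. Only this 1 of the 14 fits with a library left out passed, and over them the adjusted p ran from 0.0333 to 0.238 (edgeR). Mcm6 ran 62.7, 74.2 and 90.4 CPM in Lgr5-high against 39.4, 62.9 and 67.3 CPM in Lgr5-low controls, with 6 of 7 above every Lgr5-low library (0.42 ± 0.17, adjusted p = 0.234, edgeR). Mcm2 ran 21.1, 29.8 and 49.9 against 7.998, 21.3 and 29.2 CPM (0.62 ± 0.25, adjusted p = 0.243, edgeR). Mcm7, whose host transcript also holds the Mir25 and Mir93 hairpins, ran 103, 132 and 154 against 66.7, 89.3 and 161 CPM (0.40 ± 0.18, adjusted p = 0.298, edgeR). One Lgr5-low library, control replicate 3, held that highest Mcm7 value, and without it the adjusted p was 0.0406 (edgeR). That fit called more of all genes too, 456 of 12960 against 225 of 12495 with every library kept. Leaving out any other Lgr5-low control library gave 139 to 195 calls over all genes. On cystine diet the 6 MCM estimates were 3 positive and 3 negative with a median of -0.0066, and none was under an unadjusted p of 0.05.

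Among the genes that start new strands or coat single-stranded DNA, Prim1, Pola1 and Rpa2 were positive between populations on both diets. The polymerase genes Pola2, Pole and Pold1 were positive on control diet (0.10, 0.78 and 0.24) and negative on cystine diet (-0.23, -0.37 and -0.49). Of the 5 polymerase and primase genes, 5 were thus positive on control and 2 on cystine diet. Prim1, the catalytic primase subunit, ran 59.2, 90.0 and 97.5 CPM in Lgr5-high against 36.4, 57.0 and 98.5 CPM in Lgr5-low controls (0.57 ± 0.21, adjusted p = 0.183, edgeR). Without Lgr5-low control replicate 3, which held the 98.5 CPM, the estimate was 0.75 and the adjusted p 0.0352 (edgeR). In that fit 456 of all 12960 genes passed, against 225 of 12495 with every library kept. On cystine diet it ran 41.6, 78.6 and 119.9 against 33.7, 55.1 and 65.7 CPM (0.63 ± 0.21, adjusted p = 0.109, edgeR), and 5 of 7 Lgr5-high libraries were above every Lgr5-low library. Without Lgr5-high cystine replicate 3 that adjusted p was 0.0457, and over the 14 fits with a library left out it ran from 0.0457 to 0.293 (edgeR). Pola1, the catalytic subunit of polymerase alpha, had values of 28.8, 56.9 and 60.1 CPM in Lgr5-high against 15.4, 28.3 and 45.9 CPM in Lgr5-low libraries on cystine diet. Its log2 fold change was 0.71 ± 0.24 with an adjusted p of 0.0972 in edgeR, 0.0460 in DESeq2 and 0.0403 in limma-voom. On control diet Pola1 ran 35.0, 53.7 and 63.0 against 18.6, 35.7 and 51.2 CPM (0.42 ± 0.23, adjusted p = 0.472, edgeR). Rpa2, part of the complex that coats single-stranded DNA, ran 35.2, 47.0 and 50.3 CPM in Lgr5-high against 24.4, 27.7 and 37.0 CPM in Lgr5-low controls (0.57 ± 0.20, adjusted p = 0.155, edgeR), with 5 of 7 above every Lgr5-low library. The control and cystine comparisons rest on separate libraries, but because of how the 43 genes were chosen a shared sign is a description.

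Levels of Rfc4, the clamp loader subunit, did not overlap between male and female libraries, as read from Xist, in 3 of the 4 groups. In Lgr5-low cells Rfc4 ran 217, 302 and 536 CPM on control diet and 203, 212 and 482 CPM on cystine diet, and in Lgr5-high cells 289, 342 and 372 CPM on control and 269.6, 333 and 494 CPM on cystine diet. Within the Lgr5-low controls, the 3 male libraries held 435 to 536 CPM and the 4 female libraries 217 to 302 CPM. Within the Lgr5-low cystine group, the 2 male libraries held 255 and 482 CPM and the 5 female libraries 203 to 217 CPM. In Lgr5-high controls the 3 male libraries held 369 to 372 CPM and the 4 female ones 289 to 342 CPM, whereas in Lgr5-high cystine libraries the sexes overlapped, with 436 to 494 CPM in males and 269.6 to 453 CPM in females. Rfc4 was not alone in this. Tyms also split in both Lgr5-low groups and in the Lgr5-high cystine libraries. Rfc3, another clamp loader subunit, split in the Lgr5-low controls and in both Lgr5-high groups. In the Lgr5-low controls Tyms held 421 to 482 CPM in male and 194 to 258 CPM in female libraries. Tk1 split in both Lgr5-low groups, with 89.6 to 153 against 66.5 to 86.5 CPM in the controls. Other genes split the other way, with male libraries below: E2f1, Pold1 and Slbp in Lgr5-low controls, and Orc1 and Slbp in Lgr5-low cystine libraries. Uhrf1 did so in Lgr5-high controls and Rfc5 in Lgr5-high cystine libraries. All male libraries lay above all female ones for 9 of 43 genes in Lgr5-low controls (10.4% of all genes tested) and 5 in Lgr5-low cystine libraries (9.72%), and all lay below for 3 (13.2%) and 2 (15.8%). In Lgr5-high cells the counts above were 3 on control (5.37%) and 6 on cystine diet (7.70%), and the count below was 1 on each (7.11% and 9.05%). The male libraries carry the lowest replicate numbers of each group, so sex and any shared handling of those numbers cannot be told apart. Cell content split as well. Summed over 6 Paneth cell markers, male Lgr5-low controls held 14972 to 27125 CPM and female ones 42417 to 89886 CPM. In Lgr5-high controls the ranges were 20094 to 22142 and 82018 to 159694 CPM. On cystine diet the Paneth ranges of the sexes overlapped. The part of cell content in the splits was not tested. The Rfc4 estimate for Lgr5-high over Lgr5-low cells on cystine diet was 0.56 ± 0.20 on the log2 scale, adjusted p = 0.134 (edgeR). With a sex term the estimate was 0.59 and the adjusted p 0.00589, and among females alone 0.70 and 0.00176. Among males alone it was 0.30, with an adjusted p of 0.716 from 2 against 2 libraries. Without Lgr5-low cystine replicate 1, the 482 CPM library, the estimate was 0.77 and the adjusted p 0.0174. This was the only fit with a library left out in which Rfc4 passed. For diet within Lgr5-low cells, where Rfc4 had the lowest p of the 43, the log2 fold change of cystine over control was -0.45 ± 0.20 with an adjusted p of 0.9998 (edgeR), and -0.35 with the sex term. Its exons overlap those of Eif4a2 on the other strand over 194 of 1533 bases, and whether the counting used strand was not given in the sources used here.

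The second comparison was that of diet within each population. In Lgr5-high cells 0 of 43 genes passed an adjusted p of 0.05 in edgeR (0.168% of all genes passed), as in DESeq2 (0.712%) and limma-voom (0.312%). At an unadjusted p under 0.05 there were 6 of 43, 5 lower and 1 higher on cystine diet, against 2.13% lower and 2.15% higher over all genes. The estimate was negative for 33 of 43 (76.7%), with a median log2 fold change of -0.31, against 52.7% negative and a median of -0.024 over all genes. Without the 7 libraries under 5 M counts the median was -0.094. The 3 of these in the Lgr5-high cystine group also held the highest summed macrophage marker levels, 453 to 683 CPM, and the cause of the smaller median was not tested. In the same comparison 8 of 11 tested macrophage markers were called higher on cystine diet, from a summed median of 47.3 CPM to 396 CPM, and 9 dissociation stress genes summed to 10.6 to 31.9 CPM (median 22.9) on control against 28.8 to 55.4 CPM (median 38.7) on cystine diet. Of these 9, 0 were called and 4 were higher at an unadjusted p under 0.05 (edgeR). The part of either list in the replication genes was not tested. In Lgr5-low cells 0 of 43 passed (0% of all genes passed), with 0 calls by DESeq2 (0.032% of all) and limma-voom (0.008% of all). There 0 genes were higher (1.75% of all) and 1 was lower (1.22% of all) at an unadjusted p under 0.05. In Lgr5-low cells 16 estimates were positive and 27 negative, with a median of -0.064. No gene of the 43 had all 7 cystine libraries outside all 7 control libraries in either population, where 0.152% of all genes lay wholly above and 0.064% wholly below in Lgr5-high, and 0.04% and 0.024% in Lgr5-low cells.

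**Figure D3:**
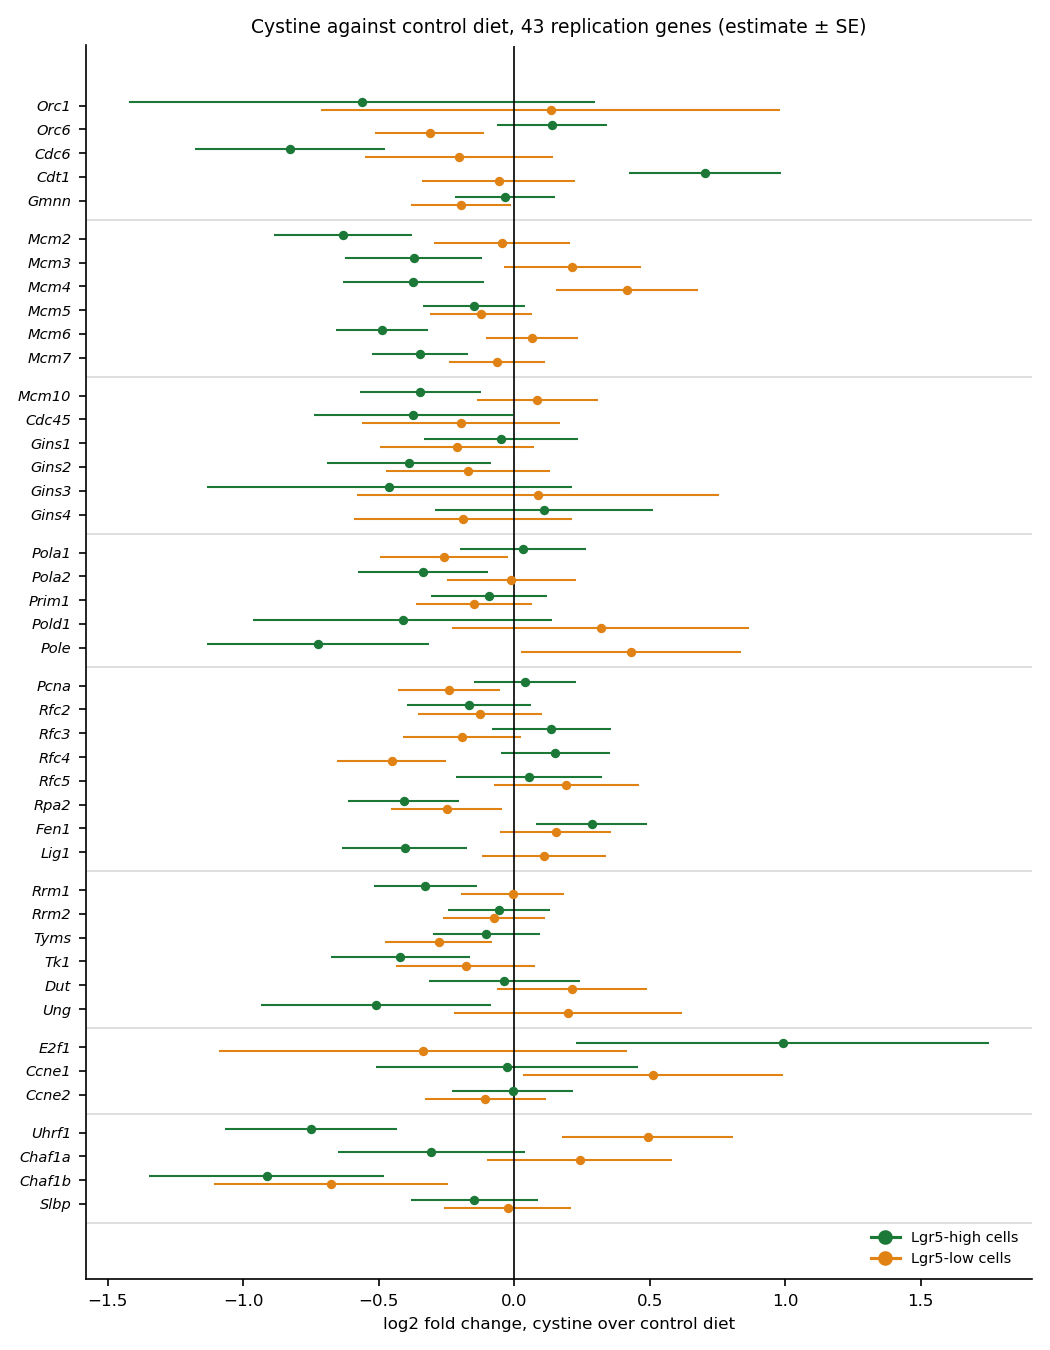
Log2 fold change of cystine over control diet for the 43 genes, grouped by role, in Lgr5-high (green) and Lgr5-low cells (orange). Points are edgeR estimates for 7 against 7 libraries, and bars are standard errors from the fit of all 28 libraries. In Lgr5-high cells 33 of 43 estimates are below 0, Cdt1 (0.70) and E2f1 (0.99) being the largest above it. E2f1 is near the floor, with medians of 1.41 CPM on control and 4.42 CPM on cystine diet. Its SE is 0.76 (unadjusted p = 0.20, edgeR), and its highest value, 13.6 CPM, is in cystine replicate 3. In Lgr5-low cells the median over the 43 genes is -0.064.

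The licensing genes gave estimates on both sides of 0 in Lgr5-high cells. Mcm6 had the lowest p of the 43: 62.7, 74.2 and 90.4 CPM on control diet against 42.96, 52.97 and 74.8 CPM on cystine diet, with 6 of 7 cystine libraries below every control library. Its log2 fold change was -0.49 ± 0.17, adjusted p = 0.597 (edgeR). Mcm2 ran 21.1, 29.8 and 49.9 against 14.4, 19.7 and 32.8 CPM, with 4 of 7 cystine libraries below every control (-0.63 ± 0.25, adjusted p = 0.926, edgeR). All 6 MCM2-7 estimates were negative, with a median of -0.37. The Lgr5-high control libraries also enter the population comparison on control diet, where all 6 were positive, so these results are not independent. Cdc6, the loader of the helicase and a gene named here after its values were seen, ran 16.2, 25.8 and 32.0 against 8.76, 13.6 and 16.4 CPM, with 6 of 7 cystine libraries below every control (-0.83 ± 0.35, adjusted p = 0.991, edgeR). Cdt1, which loads the helicase together with Cdc6, had the opposite sign: 21.7, 32.3 and 51.5 CPM on control against 24.8, 66.0 and 94.3 CPM on cystine diet, with 4 of 7 cystine libraries above every control (0.70 ± 0.28, adjusted p = 0.903, edgeR). Without the libraries under 5 M counts the Cdt1 estimate was 0.21. Gmnn, which binds and blocks Cdt1, ran 115, 185 and 219 against 130.1, 174 and 222 CPM, a difference well within the spread. In Lgr5-low cells Cdt1 ran 24.1, 32.9 and 55.1 CPM on control against 16.8, 34.7 and 53.4 CPM on cystine diet, and Gmnn 105, 137 and 248 against 104, 146 and 194 CPM.

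**Figure D4:**
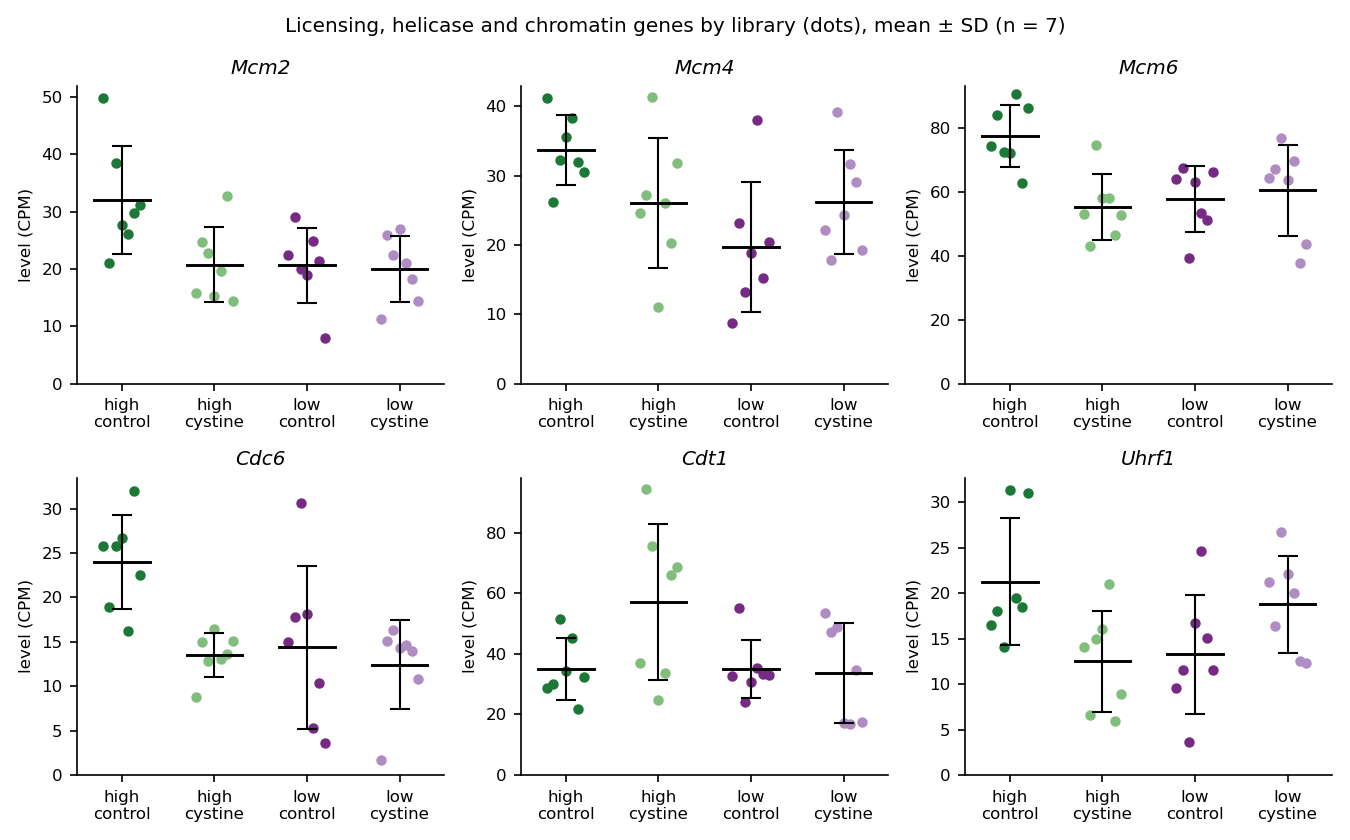
Level in CPM in each library (dots) of 3 helicase genes, the licensing genes Cdc6 and Cdt1 and the chromatin gene Uhrf1 in the 4 groups, with the mean (long line) and SD (bar), n = 7. In Lgr5-high cells 6 of 7 cystine libraries lie below every control for Mcm6 and for Cdc6, and 4 of 7 lie above every control for Cdt1.

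The 4 chromatin and histone genes were all negative in Lgr5-high cells, with a median of -0.53. Uhrf1, which brings the maintenance methyltransferase Dnmt1 to new DNA, ran 14.04, 18.5 and 31.3 CPM on control against 5.90, 14.1 and 21.0 CPM on cystine diet (-0.75 ± 0.32, adjusted p = 0.991, edgeR). In Lgr5-low cells it ran 3.64, 11.6 and 24.6 CPM on control against 12.3, 20.1 and 26.8 CPM on cystine diet, with all 7 cystine libraries above the control median. Dnmt1 itself, from the list of other replication genes, had a median of 35.03 CPM on control and 21.7 CPM on cystine diet in Lgr5-high cells. In Lgr5-low cells its medians were 19.99 and 25.8 CPM. The difference of its diet effects had an unadjusted p of 0.0170 and an adjusted p of 0.9998 (edgeR). That p was the lowest of the 45 genes of the list for this difference. Of these 45, 0 were higher and 1 was lower at an unadjusted p under 0.05, against 1.46% and 1.86% of all genes. Chaf1b, a subunit of the histone chaperone CAF-1, ran 6.34, 10.8 and 15.1 against 2.79, 4.77 and 9.41 CPM in Lgr5-high cells (-0.91 ± 0.43, adjusted p = 0.99999, edgeR). In Lgr5-low cells Chaf1b ran 1.78, 9.43 and 15.2 against 1.80, 5.53 and 7.86 CPM. Slbp, the histone mRNA binding protein, ran 32.5, 37.0 and 47.2 against 22.003, 31.9 and 45.5 CPM in Lgr5-high and 26.4, 33.00 and 42.95 against 12.3, 36.6 and 47.1 CPM in Lgr5-low cells. Its ranges overlapped in both populations.

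The difference of the diet effects between the populations was tested as an interaction. It passed the threshold for 0 of 43 genes in edgeR (0% of all genes passed), with 0 calls by DESeq2 (0% of all) and limma-voom (0.04% of all). At an unadjusted p under 0.05 there were 4 genes, 1 higher (1.46%) and 3 lower (1.86%). Uhrf1 had the lowest p, with a log2 difference of -1.24 ± 0.45, unadjusted p = 0.00849 and adjusted p = 0.9998 (edgeR). Mcm6 followed at -0.55 ± 0.24, then Mcm4 at -0.79 ± 0.37 and Rfc4 at 0.60 ± 0.28. For Mcm4, Lgr5-high medians were 32.2 CPM on control and 26.1 CPM on cystine diet (cystine range 11.1 to 41.3), and Lgr5-low medians were 18.9 and 24.3 CPM (cystine range 17.9 to 39.2). Over the 43 genes the median difference was -0.22, and without the libraries under 5 M counts it was 0.096, on the other side of 0. The interaction shares its libraries with the comparisons above.

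The remaining role groups were described by their counts, and not every gene is named. Of the 8 genes of the clamp, its loader, single-strand coating and fragment joining, 5 were positive between populations on control and 6 on cystine diet. Of the 5 origin licensing genes, 3 and 4 were positive. The helicase activators, Mcm10, Cdc45 and the 4 GINS subunits, were all positive in Lgr5-high against Lgr5-low cells on control diet. Their median was 0.35 and none was under an unadjusted p of 0.05 (edgeR). On cystine diet 5 of these 6 were positive, with a median of 0.059 and 1 under that p. For diet in Lgr5-high cells 5 of the 6 were negative, with a median of -0.36 and 0 under that p. Gins2, the highest of them in level, ran 19.7, 51.4 and 63.6 CPM in Lgr5-high control, 17.7, 35.6 and 56.7 CPM in Lgr5-high cystine, 16.3, 30.3 and 78.5 CPM in Lgr5-low control and 19.3, 29.1 and 66.4 CPM in Lgr5-low cystine libraries. About 67.3% of the annotated Gins2 exon bases overlap Gse1 on the other strand, and exons of 15 of the 43 genes overlap another gene, so their counts are uncertain. Among the G1/S regulators, the cyclin E gene Ccne2 ran 39.8, 58.5 and 71.4 CPM in Lgr5-high control, 33.8, 55.7 and 80.0 CPM in Lgr5-high cystine, 33.0, 59.5 and 88.1 CPM in Lgr5-low control and 39.5, 48.2 and 94.2 CPM in Lgr5-low cystine libraries. Its 4 medians lay within the spread of each group. The other cyclin E gene, Ccne1, gave a log2 fold change of -1.09 ± 0.49 for Lgr5-high over Lgr5-low cells on cystine diet, adjusted p = 0.259 (edgeR). Other fits gave their own shares of all genes passing, against which their counts of the 43 are to be read. On control diet between populations these were 3.60% with a term for sex, 4.90% among females, 1.15% without libraries under 5 M counts and 3.27% with the replicate number in the model. On cystine diet they were 4.95%, 3.22%, 2.01% and 3.63% in the same order. For diet in Lgr5-high cells they were 0.328%, 0.291%, 0% and 0.152%, for diet in Lgr5-low cells 0% in all 4, and for the difference of diet effects 0%, 0.0145%, 0.00722% and 0%. The 95% interval of the estimate lay within 1 log2 unit of 0 for 28 of 43 genes on control and 30 on cystine diet between populations, and for 29 and 33 in the diet comparisons of Lgr5-high and Lgr5-low cells.

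**Figure D5:**
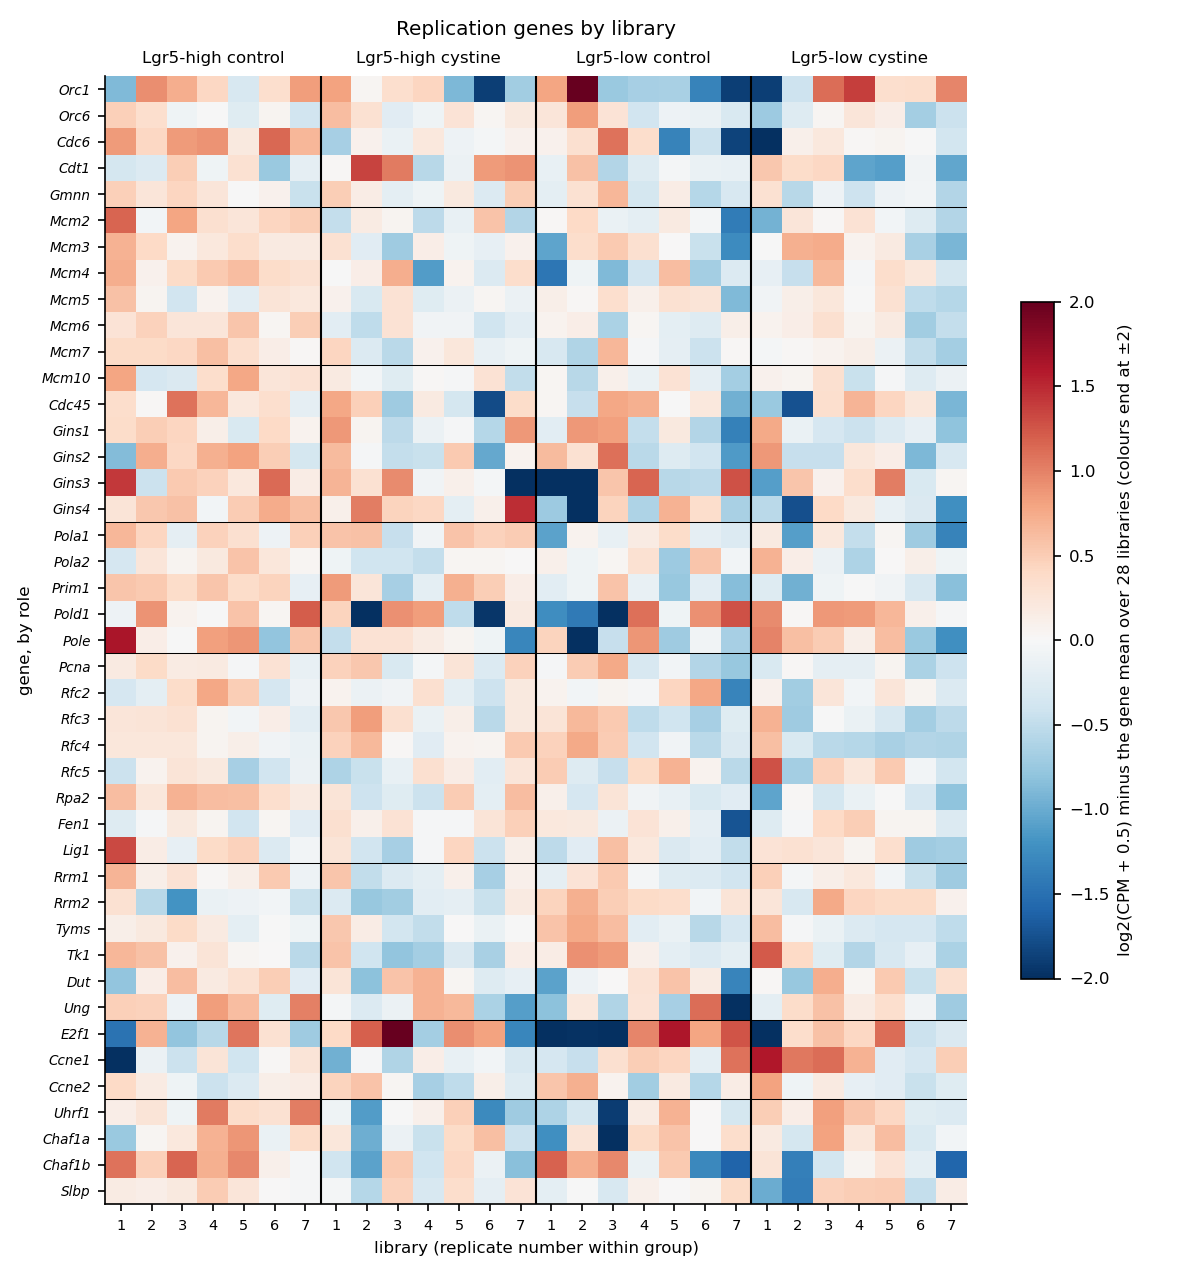
Each cell is the log2 level (CPM + 0.5) of a gene in a library minus that gene's mean over the 28 libraries, with the 43 genes in rows by role and libraries in columns by group and replicate. The median over genes lay between 0.023 and 0.35 in the 7 Lgr5-high control libraries and between -0.48 and 0.24 in the Lgr5-low cystine libraries.

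Other genes of the cell cycle were read from lists chosen with earlier results known. Of 45 further replication genes, 0 passed in any comparison, with 34 positive estimates between populations on control diet (median 0.15) and 32 on cystine diet (0.16). In the diet comparison of Lgr5-high cells 17 of these 45 were positive and 28 negative, with a median of -0.048, near the -0.024 of all genes. The 25 mitosis genes also gave 0 calls, with 18 and 21 positive, where 49.4% and 47.2% of all genes were positive. At an unadjusted p under 0.05 (edgeR), 3 were higher and 0 lower on control diet (5.92% and 6.94% of all genes). On cystine diet 8 were higher and 1 lower (6.80% and 8.72% of all genes). For diet in Lgr5-high cells the mitosis list was positive for 19 of 25, with a median of 0.15, where 47.3% of all genes were positive. Of these 25, 1 was higher and 0 lower at an unadjusted p under 0.05 (edgeR), against 2.15% and 2.13% of all genes. The replication genes were positive for 10 of 43, with a median of -0.31 that was -0.094 without libraries under 5 M counts. Of 10 replication checkpoint genes and of the 6 tested CDK inhibitors, 0 passed. Of 12 E2F and pocket protein genes 1 passed: E2f2, an activator E2F, was lower in Lgr5-high than in Lgr5-low cells on control diet, with 1.43, 5.73 and 9.67 CPM against 9.09, 21.9 and 29.8 CPM (-1.86 ± 0.46, adjusted p = 0.0253, edgeR). Its estimate was -1.75 without Lgr5-low control replicate 6 (adjusted p = 0.0574, edgeR), -1.71 without Lgr5-high control replicate 2 (adjusted p = 0.0534, edgeR) and -2.29 within males (adjusted p = 0.398, edgeR). On cystine diet the E2f2 estimate was -1.32, adjusted p = 0.127 (edgeR). Of 7 genes of G1 cyclins, their kinases and Myc factors, Myc was higher in Lgr5-high cells on control diet by 1.22 ± 0.25 (adjusted p = 0.00533, edgeR). Within males the Myc estimate was 1.20 with an adjusted p of 0.378, and on cystine diet it was 0.66 with an adjusted p of 0.155 (edgeR).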

How the data were processed

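Whole-number transcript-based estimated counts per gene were deposited by the authors for 28 libraries, made with Salmon 1.3.0 on mm10 per the submitters' processing notes. Per the labels' protocols the libraries were poly(A)-selected and directional. Whether counting used strand is not given in the sources used here. Genes were filtered with filterByExpr and fitted in edgeR 4.0.16 (R 4.3.3, TMM, robust quasi-likelihood) with 1 mean per group over all 28 libraries, and p-values were adjusted by Benjamini-Hochberg over 12495 genes at 0.05. Levels are CPM. The fit was tested on simulated data. Alternatives were DESeq2 1.42.0, limma-voom (limma 3.58.1), other scaling and filters, a replicate block, a sex term (Xist above 50 CPM), 1 sex only, libraries of 5 M counts or more (M, 1000000), and each library left out. Full values are given for the 3 genes of lowest p in each comparison and for the gene of highest mean CPM in each role, with others named as stated. The genes and lists were chosen with earlier results of these data known. No pair of libraries within a group agreed within sampling noise. Exon lengths and overlaps are from GENCODE M21.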

Additional observations from a re-analysis of the deposited data

Results flagged for a closer look

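In 72 groups of 7 libraries, made up of the genes given with full values and the summed level of all 43 genes, 1 library stood apart from the other 6 in 7 cases, where chance gives about 3.6. Lgr5-low cystine replicate 1, which held 4.11 M counts, was the highest of its group for 3 genes: Rfc4 at 482 CPM, Ccne2 at 94.2 CPM and Tyms at 439 CPM, with the next library at 255, 61.3 and 279.8 CPM. Lgr5-low control replicate 3 was the highest for Prim1 at 98.5 CPM and for Mcm7 at 161 CPM, with the next at 62.4 and 102 CPM. Lgr5-low control replicate 2 was the highest for Cdt1 at 55.1 CPM, with the next at 35.4 CPM. Lgr5-high control replicate 7 was the lowest for Prim1 at 59.2 CPM, with the next at 85.3 CPM.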

How the results depend on the processing

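In both diet comparisons and their difference, 0 of 43 genes passed in every setting run. Between populations on control diet, the count was 1 with DESeq2, where 410 of all 12495 genes passed. It was 3 with limma-voom (Cdc6, Prim1 and Rrm2), where 800 of 12495 passed. With the sex term it was 1 (3.60% of all genes), and among females 2 (Cdc6 and Gins2, 4.90% of all). With each library left out it was 0 to 2, where 124 to 456 of all genes passed. On cystine diet the count was 1 with DESeq2, where 575 of all 12495 genes passed. It was 3 with limma-voom (Pola1, Rfc4 and Rrm2), where 910 of 12495 passed. With the sex term it was 2 (4.95% of all genes), and among females 2 (3.22% of all). Without libraries under 5 M counts it was 1 (Rfc4, 2.01% of all). With each library left out it was 0 to 1, where 169 to 381 of all genes passed. The estimate of Chaf1b for diet in Lgr5-low cells, -0.68, was 0.0070 with limma-voom and 0.12 among females. The median over the 43 genes was -0.094 for diet in Lgr5-high cells and 0.096 for the difference of diet effects without libraries under 5 M counts. The cause of these shifts was not tested.

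Same-numbered libraries of different groups did not all deviate together: the correlation of deviations ran from 0.073 to 0.24 between populations on control diet and from -0.083 to 0.17 on cystine diet, and 4 and 3 of 7 libraries correlated best with their own number. Between diets 1 of 7 did so in Lgr5-high and 2 of 7 in Lgr5-low cells. The Xist classes also matched by number between the populations of each diet. Whether same-numbered libraries came from the same animal was not settled by these values, and the main fits used no pairing. With the replicate number as a block, 1 of 43 genes passed on control diet (Rrm2, adjusted p = 0.0466, edgeR) and 1 on cystine diet (Rfc4). Of all genes, 3.27% and 3.63% passed in these fits.

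Depth and spread limit what could be seen. The median standard error of the 43 genes was 0.25 on the log2 scale in each comparison of 2 groups and 0.36 for the difference of diet effects.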
